A study of Rattus norvegicus with 6 samples.

Results

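The actin genes of the rat were followed in neonatal rat ventricular cardiomyocytes (NRVCs) cultured with or without C3a, the small fragment released when complement C3 is cleaved. The group holds 6 genes of the 16575 named genes on the array: Actc1 (cardiac), Acta1 (skeletal), Acta2 (vascular smooth muscle), Actg2 (enteric smooth muscle), Actb (cytoplasmic beta) and Actg1 (cytoplasmic gamma). They were chosen by gene symbol, through the accession of each probe. The cells came from the ventricles of 8 to 10 Sprague-Dawley pups per preparation, 1 to 2 days old, and were grown in the same serum-free medium. The 3 control cultures received no C3a, and the 3 C3a cultures received recombinant C3a at 0.5 µg/ml for 12 h before lysis. A short period in low serum before stimulation is given in the methods. Each RNA sample was labelled with the dye Cy3 and hybridised to its own 1-colour Agilent array. The records do not say whether the replicates are separate preparations, so the p-values measure the spread between these samples, which may be technical.

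Actin forms the thin filament of the sarcomere and the filaments of the cell cortex and stress fibres. The protein is nearly the same in all isoforms, and the genes differ mainly in where and when they are used. Actc1 is the main sarcomeric isoform of the adult heart, while Acta1 shares the sarcomere with it in the newborn rodent heart and is a known marker of the fetal programme in hypertrophy. Acta2 is found in early cardiomyocytes, in vessel walls and in activated fibroblasts. Actg2 belongs to the gut wall, and Actb and Actg1 are used by almost every cell and often serve as loading controls. Transcription of many actin genes depends on serum response factor (SRF), which binds a short element called the CArG box.

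The elements below are shown because SRF itself, several of its partners and the actin genes were read on the same arrays. Promoter windows of 300 bases, from 250 before to 50 after an annotated start, were taken from RefSeq (GRCr8) and held 5 of the 6 genes. The strict CArG consensus, which reads the same on both strands, was found in 3 of these 5 windows and in 1.64% of all 33469 windows. Each stretch is 60 bases on the minus strand, written 5′ to 3′, with the box in capitals.
Actc1, chr3:121271791-121271850, box at base 3 after the start: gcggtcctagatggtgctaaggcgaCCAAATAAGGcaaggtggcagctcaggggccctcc
Acta1, chr19:68784254-68784313, box at -94 from the start: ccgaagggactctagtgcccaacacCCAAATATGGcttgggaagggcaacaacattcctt
Actg1, chr10:106121007-106121066, box at -90 from the start: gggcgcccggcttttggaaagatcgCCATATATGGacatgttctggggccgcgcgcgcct
The windows of Acta2 and Actg2 held no exact match, and that of Actg2 lay 10340 bases inside the outermost start of the gene. A match is a description of the letters and not of a bound site.

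All 6 arrays lay on 1 slide, controls on one side and C3a arrays on the other, so slide side and treatment cannot be told apart. Probes well above background made up 38.6% of all on control replicate 1 and between 53.7% and 57.3% on the other arrays. Signal is the log2 of the background-corrected intensity minus that of the array's 75th percentile, so that 0 marks this percentile. The actin genes had 8 probes, all well above background on all 6 arrays and none saturated. Actg2 and Actg1 had 2 probes each, and the brighter one stands for the gene. Because probes bind with unequal strength, the level of one isoform was not set against that of another. Actin messages are also alike in sequence, and binding of one isoform to the probe of another was not tested. In RNA from whole cultures, fewer cells of a type and less RNA per cell cannot be told apart.

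Of the 6 actin genes, 0 differed between C3a and control at an adjusted p under 0.05 from limma, where 0 of all 23438 probes kept for the test (0%) did. The limma fit gave 1367 probes at an unadjusted p under 0.05 and a smallest adjusted p of 0.704. The corresponding count among the actin genes was also 0 of 6, beside 5.35% of the 10390 genes with a kept probe. In 0 of 6 actin genes were the C3a arrays separated from the control arrays without overlap, which 13% of genes showed. The log2 difference was above 0 for 5 actin genes and below 0 for 1, Acta1, with a median of 0.029. Over the 10390 genes with a kept probe the median was 0.036, and 6284 of them were above 0. That background depended on which probes were kept. The median was 0.048 over the kept probes and -0.10 over 45572 probes when dim ones were not left out.

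**Figure D1:**
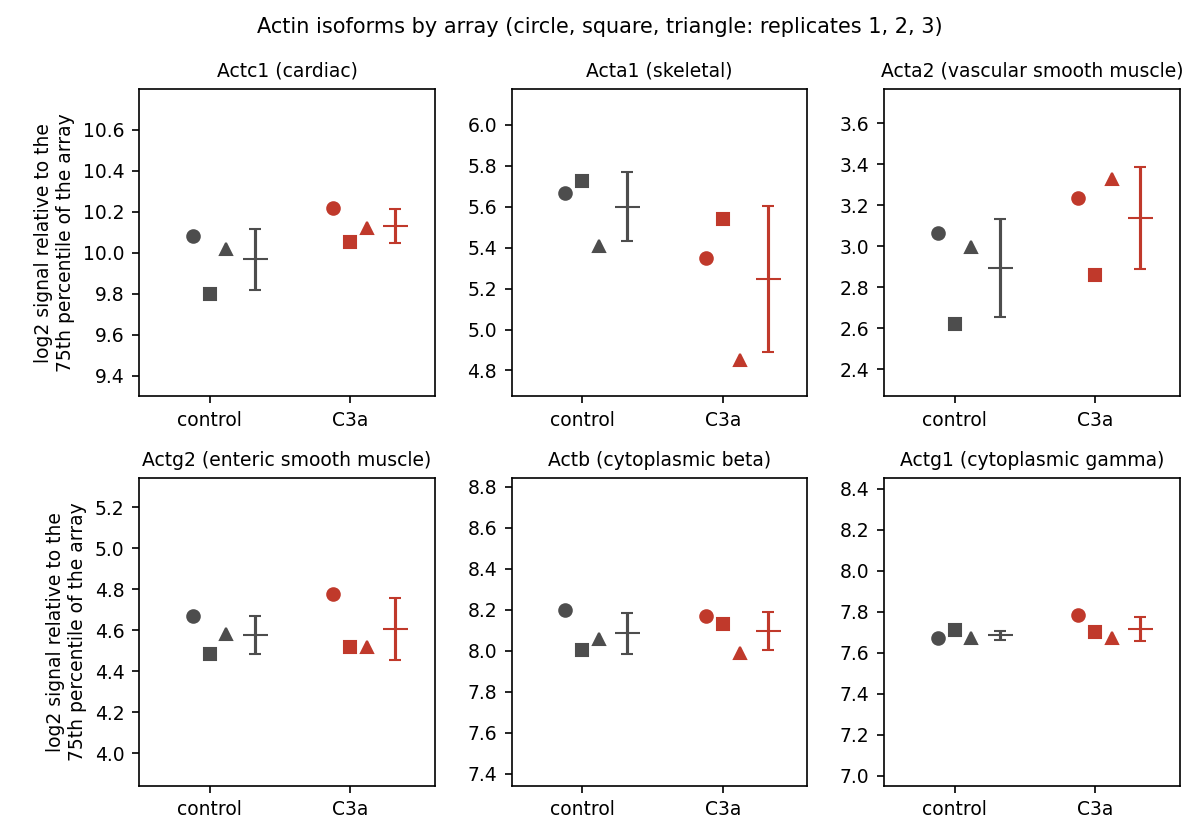
Relative log2 signal of the brighter probe of each actin gene on 3 control (grey) and 3 C3a arrays (red), where the dash and bar give the mean and SD and every panel spans the same height on the log2 scale. Points of both groups overlap in every panel, and Acta1 on C3a replicate 3, at 4.85, lies apart from the other Acta1 values.

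The cardiac isoform Actc1, the thin-filament actin of the working heart, had an intensity of 296116, 327379 and 279056 on control replicates 1 to 3. With C3a it had 274001, 305273 and 230717. On the relative log2 scale these were 10.08, 9.80 and 10.02 in the controls and 10.22, 10.05 and 10.12 with C3a. The highest values were those of C3a replicates 1 and 3, but control replicate 1 lay above C3a replicate 2. The control mean was 9.97 ± 0.15 (SD, n = 3) and the mean of the C3a arrays 10.13 ± 0.083 (SD, n = 3). The log2 difference of 0.16 (standard error 0.11) had an adjusted p of 0.745 from limma. Its 95% interval ran from 0.932-fold to 1.34-fold, and its sign turned with the scaling of the arrays, to -0.055 after quantile normalization. The Actc1 probe lay at percentile 99.97 of mean signal among the kept probes, where quantile normalization leaves little room for a difference. On the main scale the log2 difference was 0.079 without control replicate 2, and 0.13, 0.25 and 0.10 within the 3 pairs of equal replicate number.

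The skeletal isoform Acta1 gave the one difference below 0. Its relative log2 signal was 5.67, 5.72 and 5.41 on control replicates 1 to 3, and 5.35, 5.54 and 4.85 on C3a replicates 1 to 3. The lowest value was C3a replicate 3, where the intensity was 5969 against 19432 on control replicate 2. Control replicate 3 lay below C3a replicate 2, so the groups overlapped. The mean was 5.6 ± 0.17 (SD, n = 3) in the controls and 5.25 ± 0.36 (SD, n = 3) with C3a. The log2 difference of -0.35 (standard error 0.19), or 0.783-fold, had an adjusted p of 0.745 from limma and an interval from 0.573-fold to 1.07-fold. It was -0.15 without C3a replicate 3, the smallest value when each array was left out in turn. Within the 3 pairs of equal replicate number, the log2 difference was -0.32, -0.19 and -0.56.

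The vascular smooth muscle isoform Acta2, a common marker of activated fibroblasts, had relative log2 signals of 3.07, 2.62 and 2.99 on control replicates 1 to 3. On C3a replicates 1 to 3 it had 3.23, 2.86 and 3.33. Replicate 2 was the lowest of its group in both conditions. The control mean was 2.89 ± 0.24 (SD, n = 3), and that of the C3a arrays 3.14 ± 0.25 (SD, n = 3). The log2 difference of 0.25 (standard error 0.17), or 1.19-fold, had an adjusted p of 0.745 from limma and an interval from 0.896-fold to 1.57-fold. Leaving out each array gave 0.11 (without control replicate 2) to 0.39 (without C3a replicate 2), with 0.15 without C3a replicate 3. The difference was 0.17, 0.24 and 0.33 within the 3 pairs, and its sign turned without normalization between arrays, to -0.079. The log2 difference of the enteric isoform Actg2 was 0.026 with its brighter probe (adjusted p = 0.953 from limma) and 0.027 with its dimmer one. Its relative log2 signal was 4.67, 4.49 and 4.58 in the controls and 4.78, 4.52 and 4.52 with C3a, with the groups interleaved.

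Pairing the arrays by replicate number narrowed the spread for Acta1 and Acta2. With the replicate block, 2 of 6 actin genes had an unadjusted p under 0.05 from limma, Acta1 at 0.0199 and Acta2 at 0.0382, beside 11.8% of all genes. The adjusted p from limma was then 0.289 for Acta1 and 0.339 for Acta2.

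Both cytoplasmic isoforms stayed close to their control level on this scale. Actb is printed in 10 spots on each array, which shows the spread between spots within an array. Spots of an array share the same labelling and hybridisation, so that spread leaves out technical differences between arrays. The SD between its spots within an array lay between 0.025 and 0.053 on the log2 scale, below the SD between arrays of one group, which was 0.10 in the controls and 0.094 with C3a. The relative log2 signal of Actb was 8.20, 8.00 and 8.06 in the controls and 8.17, 8.13 and 7.99 with C3a. Its log2 difference was 0.011 (standard error 0.10, adjusted p = 0.978 from limma), with an interval from 0.852-fold to 1.19-fold. Actg1 had 7.67, 7.71 and 7.67 in the controls and 7.78, 7.70 and 7.67 with C3a at its brighter probe. The log2 difference was 0.033 there (standard error 0.088, adjusted p = 0.919 from limma), with an interval from 0.886-fold to 1.18-fold. The dimmer Actg1 probe gave -0.065, so the probes differed in sign, each within its standard error. After quantile normalization the values were -0.18 for Actb and -0.15 for Actg1.

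**Figure D2:**
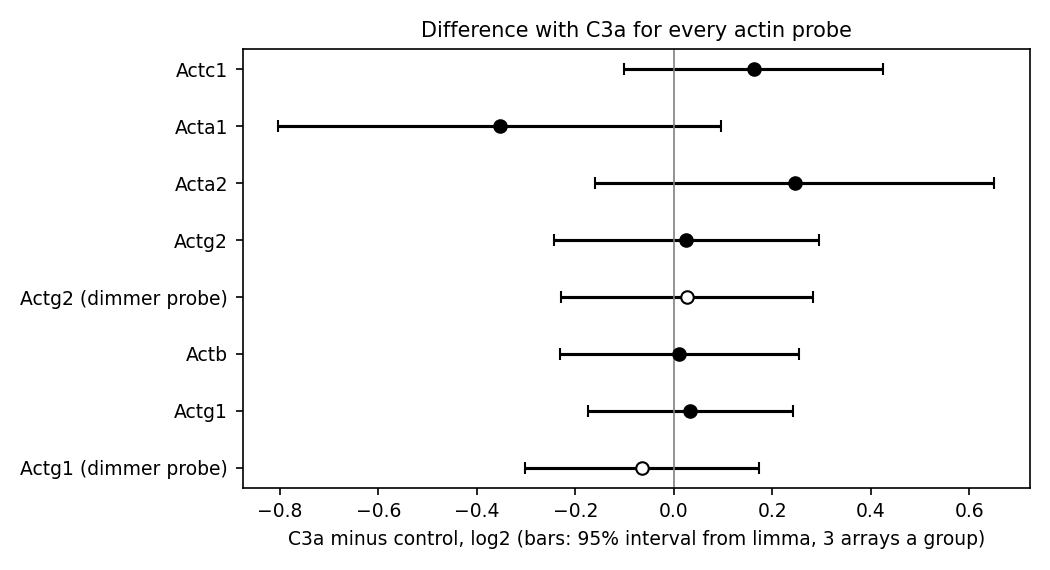
Log2 difference, C3a minus control, for all 8 actin probes, with 95% intervals from limma over 3 arrays a group (open circles: dimmer probe of a gene). Every interval crosses 0, and that of Acta1, from -0.80 to 0.097, is the widest.

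A ratio of 2 probes within an array does not depend on a common scaling factor. Its value also holds the unequal binding of the probes, so only its change between groups can be read, not the proportion of the isoforms. The log2 ratio of the Acta1 probe to the Actc1 probe was -4.42, -4.07 and -4.61 on control replicates 1 to 3. With C3a it was -4.87, -4.51 and -5.27. Every C3a array lay below the control array of the same number, while C3a replicate 2 lay above control replicate 3. The difference was -0.52, or 0.700-fold (two-sided exact permutation test, p = 0.2), and -0.32 without C3a replicate 3. With 3 arrays against 3 that test cannot go below 0.1, so none of the 4 ratios examined could pass 0.05. Adjusted over these 4, the exact p was 0.667 for Acta1 to Actc1. It was 0.667 as well for Acta2 to Actc1, with a difference of 0.083, and for Actg2 to Acta2, with -0.22. The latter was -0.082 without C3a replicate 3 and -0.13 without control replicate 2. For Actg1 to Actb the difference was 0.022, with an adjusted exact p of 0.9.

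**Figure D3:**
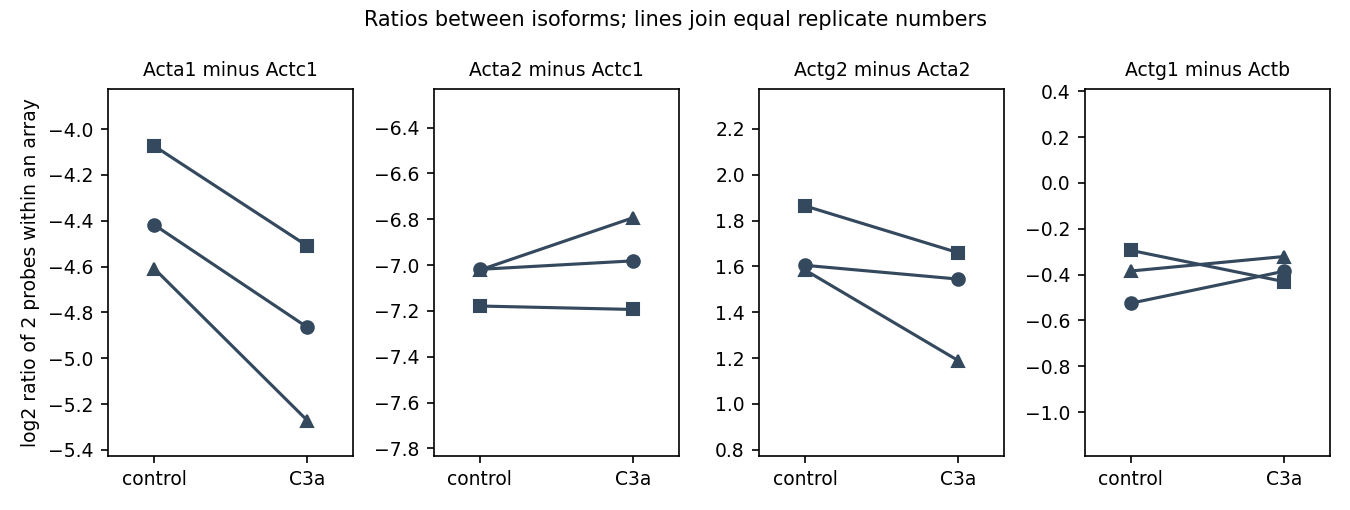
Log2 ratio of the probes of 2 actin genes within an array, without and with C3a, for the 4 ratios examined; lines join arrays of equal replicate number (circle, square, triangle for replicates 1, 2 and 3). The 3 lines of Acta1 to Actc1 all slope down, by 0.45, 0.44 and 0.66.

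The brightness of the arrays moved with these values. The 75th percentile was 272.6, 367.3 and 269.3 intensity units on control replicates 1 to 3, and 230.3, 287.8 and 207.1 on C3a replicates 1 to 3. The intensity of Acta2 was nearly level over the 6 arrays, from 2078 to 2282, a ratio of 1.1 against 1.77 for the percentile. Its relative signal was therefore lowest on the brightest array, control replicate 2, and highest on the dimmest, C3a replicate 3. Acta1 ran the other way, with a ratio of 3.25 between the same arrays, more than the percentile itself. The ratio was 1.42 for Actc1, 1.74 for Actg2, 1.79 for Actb and 1.82 for Actg1. With brightness as a covariate, a fit chosen after seeing the data, the log2 difference was -0.072 (standard error 0.19) for Acta1 and -0.070 (standard error 0.11) for Acta2. The difference in the log2 ratio of Acta1 to Actc1 was -0.11 in that fit, against -0.52 without the covariate. The C3a array was the dimmer one in each of the 3 pairs, so the covariate also takes up differences between the groups. Brightness and treatment cannot be told apart with these arrays.

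**Figure D4:**
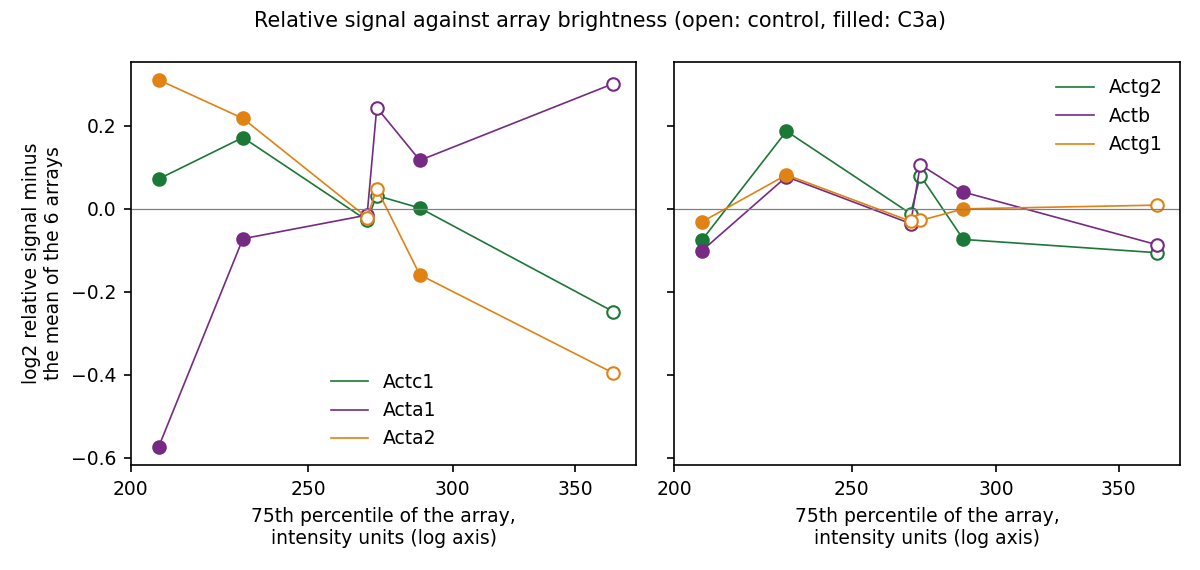
Relative log2 signal of each actin gene, as the distance from its mean over the 6 arrays, against the 75th percentile of the array on a log axis (open: control, filled: C3a). From the dimmest array, at 207.1 units, to the brightest, at 367.3, Acta1 climbs from 4.85 to 5.72 while Acta2 descends from 3.33 to 2.62.

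Other genes with the same array-to-array pattern were ranked by Pearson r with each actin gene, over 6 arrays that share the scaling above, as a description only. Those most like Acta1 were Ddost, Itm2c and Bod1 (r = 0.998, 0.996 and 0.996 over 6 arrays), and those most like Acta2 were Dpcd, Cnih3 and Wdr82. Actc1 was most like Ankrd39, Ppcdc and Ppp1r9b. Ccar1, Gpat3 and Ska2 came first for Actg2, Znhit6, Uck1 and Anks1a for Actb, and Atf1, Canx and Chordc1 for Actg1. Over the 6 arrays these r lay between 0.976 for Chordc1 and 0.998 for Ankrd39, after a search of 10390 genes.

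Genes that build and dismantle actin filaments were read beside the isoforms. Of 29 genes of actin assembly and turnover, 27 had a kept probe, with 12 above 0 and 15 below and a median log2 difference of -0.043 with C3a. None had an adjusted p under 0.05 from limma, and 2 of 27 had an unadjusted p under 0.05, beside 5.35% of all genes. These were Cap1, which recycles actin monomers, at -0.55 (standard error 0.19), and Arpc2, a subunit of the branching complex Arp2/3, at -0.36 (standard error 0.13). The muscle cofilin Cfl2, which severs filaments, had -0.36. At the other end were Tmsb10, a thymosin that holds actin monomers, with 0.19, and Limk1, the kinase that silences cofilin, with 0.16.

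SRF, its cofactor and their targets made up a second list of 18, of which 16 had a kept probe. The log2 difference was above 0 for 9 and below 0 for 7, with a median of 0.042. Srf itself had a control mean of 4.78 ± 0.10 (SD, n = 3) and 4.91 ± 0.059 (SD, n = 3) on the C3a arrays, a log2 difference of 0.12 (adjusted p = 0.752 from limma). Its muscle cofactor Myocd had 0.15 and the Z-disc protein Pdlim7 had 0.19. The lowest were Fhl2, a LIM protein that binds SRF, with -0.46, and the SRF partner Elk1, with -0.36. Flna, the filament crosslinker filamin A, was the 1 gene of the list at an unadjusted p under 0.05, with -0.26 (standard error 0.11). That is 1 of 16, beside 5.35% of all genes. The number at an adjusted p under 0.05 from limma was 0. The coactivators Mrtfa and Mrtfb had no probe matched here.

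The cells were checked against marker genes. The probes of Cnn1, Lmod1, Myog, Myh4, Lum, Tcf21 and Csf1r were well above background on 5 of 6 arrays and so entered through 1 condition alone. The same holds for Fos and Junb in the SRF list. Of the 23438 kept probes, 23425 met the threshold on the C3a arrays and 17519 on the controls. Each of the 11 cardiomyocyte markers with a probe passed the background threshold on every array. Their log2 difference was above 0 for 8 and below 0 for 3, with a median of 0.16, where 6284 of the 10390 genes with a kept probe were above 0. The 8 were all brighter than the 3. The lists were read on the scale of the 75th percentile alone, and the sign of Actc1, also bright, turned with the scaling. Tnnc1 and Myl2, thin- and thick-filament proteins, were highest at 0.24 each, and Actn2, the Z-disc crosslinker of actin, was lowest at -0.30, followed by Ryr2, the calcium release channel, at -0.11. The summed linear signal of this list, relative to the 75th percentile, ranged from 4885 to 6405 in the controls and from 6132 to 7022 with C3a. For the isoform Acta1, the skeletal muscle list gave 4 kept genes of 7 with a probe, while Myod1 and Tnnt3 were below the background threshold on all 6 arrays. Its sum ranged from 1.47 to 2.16 in the controls and from 1.91 to 2.01 with C3a. The 4 log2 differences lay between -0.095 for Myh4 and 0.17 for Myf5, with 0.10 for Tnni2 and 0.13 for Myog.

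For Acta2 and Actg2, 7 of 8 smooth muscle markers had a kept probe, and Synpo2 was below the background threshold on all 6 arrays. Of these, 1 was above 0, Smtn with 0.18, and 6 were below, beside 39.5% of all genes with a kept probe. Those below ran from -0.030 for Myh11 down to -0.10 for Tagln and -0.15 for Cnn1, while Acta2 had 0.25. The sum of this list ranged from 97.8 to 119.9 in the controls and from 95.4 to 110.1 with C3a. All 10 fibroblast markers were kept, with 2 above 0 and 8 below, beside the same 39.5%. The 10 values ran from -0.54 for Lum and -0.49 for Vim to 0.010 for Col1a2 and 0.024 for Col1a1. Lum was the 1 gene of these 10 at an unadjusted p under 0.05, beside 5.35% of all genes. Their sum ranged from 118.7 to 133.2 in the controls and from 115.9 to 132.4 with C3a. Endothelial markers had a median of 0.14 over 5 kept genes of 6, from -0.23 for Tek and 0.064 for Pecam1 to 0.24 for Vwf and 0.26 for Cdh5, with sums of 33.3 to 45.9 and 42.3 to 53.5. Macrophage markers had -0.16 for Cd68, -0.089 for Lyz2 and 0.41 for Csf1r, the 3 kept of 6, with sums of 5.71 to 7.16 and 5.57 to 6.11. In these cell marker lists 0 genes had an adjusted p under 0.05 from limma. The part of other cell types in the actin values was not tested.

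**Figure D5:**
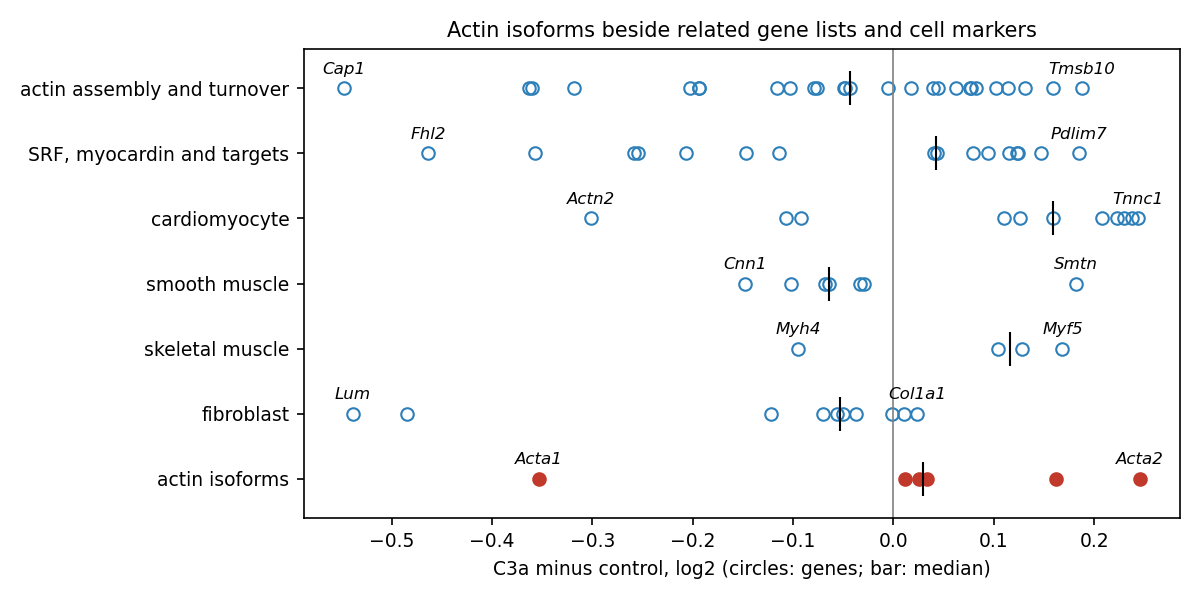
Log2 difference, C3a minus control, of every gene with a kept probe in the actin assembly and SRF lists and in the muscle and fibroblast marker lists (open circles, with the outermost genes named) and of the 6 actin isoforms (filled), with a bar at each median. The isoforms lie between -0.35 for Acta1 and 0.25 for Acta2, and the actin assembly genes between -0.55 for Cap1 and 0.19 for Tmsb10.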

How the data were processed

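RNA of 3 control and 3 C3a cultures of NRVCs was measured on 1-colour Agilent rat arrays. The authors deposited the intensity of each spot, background-subtracted and detrended by Agilent Feature Extraction 11.5.1.1 (per the labels) and not normalized between arrays. A second deposited table, also from the authors, holds log2 values; its columns matched the scanner values minus the 75th percentile of the array to within 0.0059 at the median, uncentred. Spots with an outlier flag were left out, and spots of a probe were averaged. The 75th percentile was subtracted on the log2 scale. Kept were 23438 probes well above background (at least 50% of spots) on all 3 arrays of a condition. The controls alone met this for 17519 probes and the C3a arrays for 23425, so many entered through the C3a arrays only, while the local background (median over spots) was 47 on control replicate 1 and 23 or 24 on every other array. Of 45598 probes, 21109 (46.3%) had an accession in the GRCr8 gene table.

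Both groups entered a linear model per probe with moderated variances (limma 3.58.1, R 4.3.3). Tests were two-sided, with Benjamini-Hochberg adjustment over all kept probes. The step was tested on simulated data with independent noise for each probe and array. That simulation held no effect shared by an array or a replicate number, so it does not cover that feature of these data. Ratios used exact permutation tests over the arrays. Arrays of equal replicate number deviated together (r = 0.28, 0.32 and 0.31 over kept probes). The numbers come from the labels and were used as a block in an alternative. The genes named are the 6 actins, the 2 highest and 2 lowest of a list or fewer, and the genes closest in pattern; Srf and genes at an unadjusted p under 0.05 were named after their values were seen. Members and lists were chosen with earlier results of these data known. Figures were drawn with matplotlib 3.10.9.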

Additional observations from a re-analysis of the deposited data

How the results depend on the processing

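With 3 arrays a group, no actin gene passed an adjusted p of 0.05 from limma in any of the 138 alternative values, the lowest being 0.289. Acta1 kept its sign in 23 of 23 alternatives, between -0.80 and -0.072, and the log2 ratio of Acta1 to Actc1 in 15 of 15, between -0.70 and -0.11. Many of these could not turn the sign. Other probe filters, the variance trend, the replicate block and the t-test leave the Acta1 difference at -0.35 by construction. In the ratio, a constant scaling of the arrays cancels, and the block leaves the mean at -0.52. Cyclic loess and the brightness covariate were chosen after seeing the data. Signs of the other actin genes turned with the scaling, and the cause was not tested. After quantile normalization the difference was -0.055 for Actc1, -0.052 for Actg2, -0.18 for Actb and -0.15 for Actg1, and with cyclic loess -0.041, -0.051, -0.14 and -0.11. Without normalization between arrays it was -0.16 for Actc1, -0.079 for Acta2, -0.30 for Actg2, -0.31 for Actb and -0.29 for Actg1. With 7 E1A spike-in probes it was -0.29, -0.20, -0.42, -0.44 and -0.42. The median of the kept probes was -0.28 and -0.40 in these settings, against 0.048 with the 75th percentile. With the percentile over probes detected on all arrays, Actg2 had -0.0024 and Actb -0.017. With normexp on the median spot signal, Actb had -0.010, Actg1 -0.014 and Actg1 to Actb -0.0036. The mean over its probes gave Actg1 -0.016. With the brightness covariate, Acta2 had -0.070, Actg2 -0.046, Acta2 to Actc1 -0.10 and Actg2 to Acta2 0.023. Leaving out each array gave -0.061 to 0.072 for Actg2, -0.030 to 0.067 for Actb, -0.014 to 0.19 for Acta2 to Actc1 and -0.040 to 0.076 for Actg1 to Actb.

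Over all probes, the adjusted threshold of 0.05 was passed by 0, and instead by 4 lower without normalization, and 1 higher and 15 lower with spike-in scaling. An unpaired t-test on the probes kept here, unadjusted, gave 748 higher and 362 lower, and 0 after Benjamini-Hochberg adjustment. The methods name t-tests for comparing means, and for the arrays an analysis of variance with Tukey's correction. These counts are therefore not the gene list of the paper. The 1367 probes at an unadjusted p under 0.05 became 2599 without normalization, 3186 with the replicate block and 662 with the brightness covariate. Leaving out each array gave 711 (without C3a replicate 3) to 2138 (without control replicate 3), with 898 without C3a replicate 1. The replicate block changed no call at the adjusted threshold.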
